A study of Homo sapiens with 8 samples.

Results

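The p53 target genes MDM2, CDKN1A, TP53I3, ZMAT3, FDXR, TP53INP1, TNFRSF10B, FAS and PHLDA3 were followed through the response of human myeloma cells to the corepressor CTBP2. These 9 genes were taken by symbol from a table of 25906 genes, and all 9 were found. RNA was sequenced from MM.1S and NCI-H929, established human multiple myeloma cell lines, after lentiviral transduction for 72 hours. In each line 2 cultures received a vector that overexpresses CTBP2 and 2 received the empty vector (EV), which gives 4 groups and 8 libraries, described by the submitters as biological duplicates. All cells were bulk transduced cultures grown in RPMI1640 with serum, and all carried a lentiviral vector. Values were FPKM, fragments scaled by transcript length and library total, so levels can be set side by side between genes.

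p53 is a transcription factor that is held at low levels by the ubiquitin ligase MDM2 and accumulates after DNA damage or other stress. It binds a response element made of adjacent 10-base blocks in or near its targets, and so switches on genes for cell cycle arrest, death receptor signalling, redox balance, DNA repair and its own restraint. The cyclin-dependent kinase inhibitor p21, made from CDKN1A, also acts indirectly by moving the DREAM complex onto genes of the G2/M phase and silencing them. In myeloma, loss of p53 function marks aggressive disease, and both lines used here are commonly treated as p53-competent.

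The 300-base windows around RefSeq start sites (build GRCh38.p14, 250 bases before to 50 after the start) show what such an element looks like in these genes. A p53 response element with at most 3 mismatches in 20 bases was found in 5.2% of the 35116 windows searched and in at least 1 window of 6.39% of the 27305 genes with a window. The element was searched as a consensus of 2 adjacent 10-base blocks, with no bases allowed between them. Each block is 3 purines, C, 2 bases that are A or T, G and 3 pyrimidines. The consensus reads the same on both strands, and overlapping matches were not counted apart. Windows were at hand for 6 of the 9 genes, of which MDM2, FAS and FDXR held a match, and CDKN1A, TP53I3 and ZMAT3 held none. Sequence outside these windows was not searched, so a gene without a match here may still hold an element elsewhere. TP53INP1, TNFRSF10B and PHLDA3 were not analysed here for sequence. The 3 stretches below hold the matches found in MDM2, FAS and FDXR. With CTBP2 over both lines FAS was called higher, and MDM2 and FDXR were not called. In the fit of all 8 libraries MDM2 was the single gene of the 9 with a fitted level below EV. Capitals mark the matched 20 bases.
MDM2, chr12:68808893-68808972, plus strand: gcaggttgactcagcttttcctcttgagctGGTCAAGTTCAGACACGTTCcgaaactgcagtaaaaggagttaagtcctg
FAS, chr10:88991279-88991358, plus strand: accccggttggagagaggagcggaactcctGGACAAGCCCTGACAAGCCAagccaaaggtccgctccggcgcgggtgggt
FDXR, chr17:74872966-74873045, minus strand: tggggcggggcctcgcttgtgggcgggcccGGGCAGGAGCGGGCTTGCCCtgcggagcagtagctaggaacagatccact
The MDM2 and FAS matches had 2 mismatches each and lay 751 and 511 bases after the first annotated start of their gene. By the GENCODE v29 annotation of the same assembly the MDM2 match was intronic in 7 of 34 transcripts and upstream of or beyond the other 27, with 0 exonic. The FAS match was intronic in 11 of 20 transcripts and exonic in 2. The FDXR match had 3 mismatches, ended just ahead of the first start and was exonic in 5 of 20 transcripts. A match is a description of letters, and binding was not measured.

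Line identity was read from expression, since 2 libraries went against their label. CCND2, a cyclin D gene, was above 10 FPKM in the 4 libraries taken as MM.1S, and FGFR3, a receptor kinase gene activated by translocation in NCI-H929, was above 10 FPKM in the 4 taken as NCI-H929. The lowest values above this threshold were 46.7 FPKM for CCND2 and 13.6 FPKM for FGFR3, and the highest below it were 0.0633 and 0.057 FPKM. The library labelled as MM.1S CTBP2 replicate 2 had 22.2 FPKM of FGFR3 and 0.0582 FPKM of CCND2, and the library labelled as NCI-H929 CTBP2 replicate 2 had 60.7 FPKM of CCND2 and 0.0399 FPKM of FGFR3. CTBP2 itself followed the vector labels, at 1621 to 5884 FPKM in the 4 CTBP2 libraries against 0.148 to 0.213 FPKM in the 4 EV libraries. It was at 1621 and 2145 FPKM in the CTBP2 libraries taken as MM.1S and at 3427 and 5884 FPKM in those taken as NCI-H929. Line and CTBP2 level therefore cannot be told apart where CTBP2 effects are compared between lines. Estimated depth was 16000000 to 21000000 fragments per library. The 7 plasma cell markers summed to 1141 to 1995 FPKM in CTBP2 libraries and 1530 to 2449 FPKM in EV libraries. The CTBP2 fold changes of the 9 genes are given with all 8 libraries in the line they express, and their main values again for the 6 libraries whose label and markers match. Both libraries left out there carry CTBP2, so within a line the 6 libraries set a single CTBP2 library against 2 EV libraries. Within-line values from the 6 libraries therefore rest on that library. Variation shares, correlations and standardized means use all 8.

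**Figure D1:**
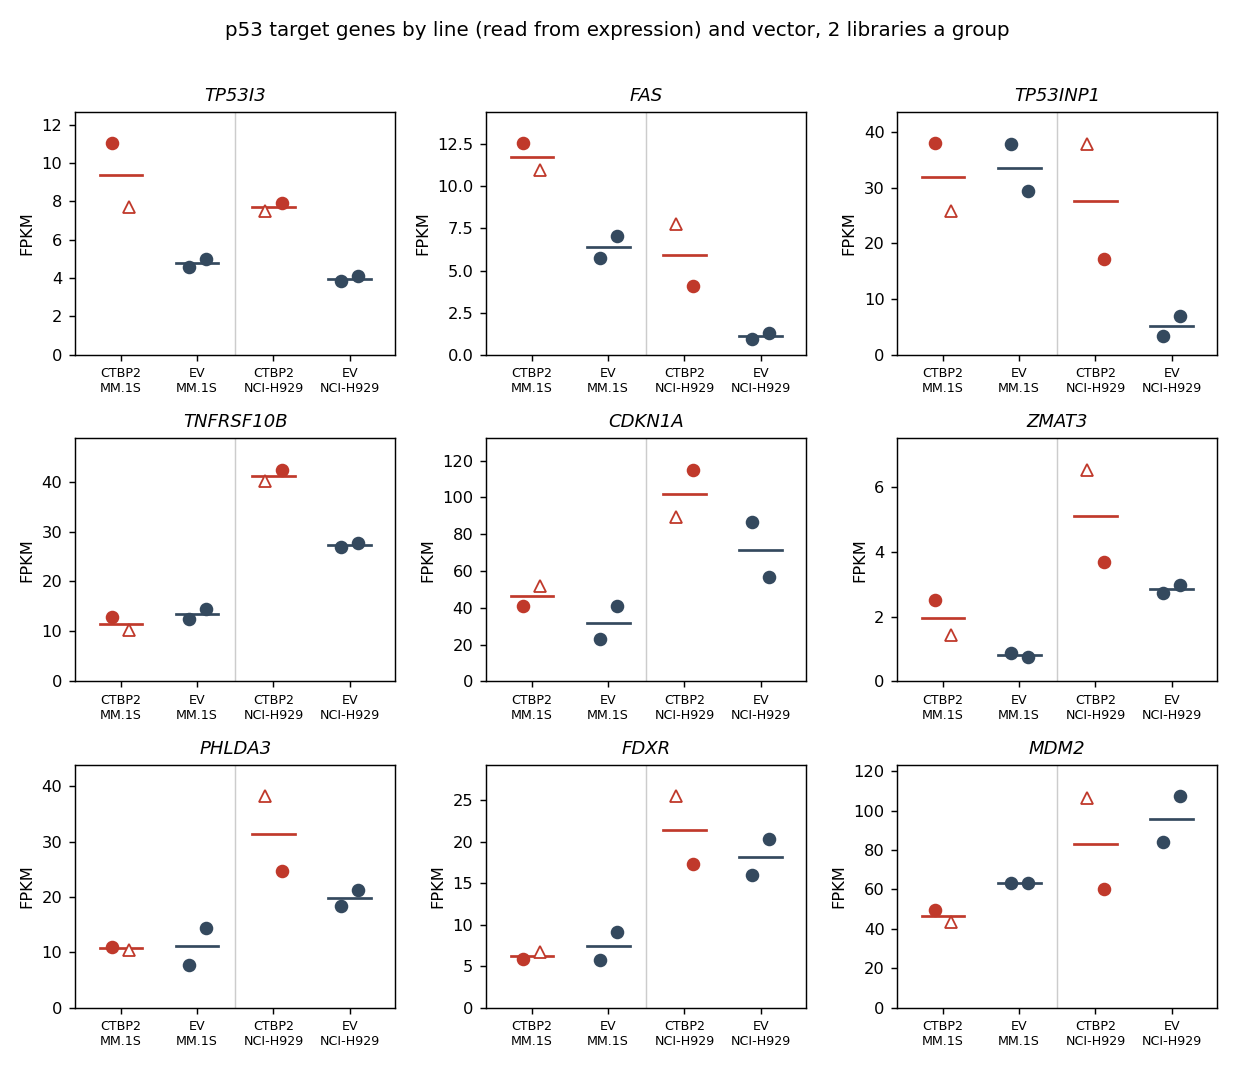
FPKM of each of the 9 genes (vertical axis, 1 panel a gene) in the 4 groups of 2 libraries, with CTBP2 in red and EV in dark grey, lines for group means, and open triangles for the 2 libraries whose line markers go against their label. TP53I3 was at 7.50 FPKM or more in all 4 CTBP2 libraries and at 5.00 FPKM or less in all 4 EV libraries, while FDXR, TNFRSF10B and PHLDA3 separate by line.

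Across both lines TP53I3, FAS and ZMAT3 rose with CTBP2, by 0.81, 1.23 and 0.66 on the log2(FPKM + 1) scale, a scale that understates the change of genes with low values. None of the 9 genes was called lower by limma, and 0 were lower at an unadjusted p under 0.05, where 5 were higher. These 3 of 9 genes called higher (limma adjusted p under 0.05) stood against a background of 17.4% of the 12583 genes tested called higher, 16.7% called lower and 34.1% called in either direction. The median fold change of the 9 genes was 0.55 on the log2 scale, against 0.04 over all genes tested. In the 6 libraries the same count was 3 of 9 higher and 0 lower, with 11.5% of all genes called higher and 13% lower. With the lines as labelled, 1 of the 9, TP53I3, was called, with 3.34% of all genes called in either direction. Leaving out 1 library at a time gave 2 to 4 of the 9 genes and 2458 to 4441 genes in all, against 4287 with every library; the lowest count came without MM.1S CTBP2 replicate 1. Replicates are biological duplicates per the submitters. Within a line p-values measure the spread between duplicates, pooled over the groups. Over both lines the spread also holds any difference of the CTBP2 effect between the lines. In bulk RNA a change in the share of cells of one state and a change per cell cannot be told apart.

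CDKN1A (Entrez 1026) encodes p21, the inhibitor through which p53 halts the cell cycle. In MM.1S it was at 41.1 and 52.0 FPKM in CTBP2 libraries and at 23.0 and 40.7 FPKM in EV libraries. Levels in NCI-H929 were 89.2 and 115 FPKM in CTBP2 libraries and 56.7 and 86.5 FPKM in EV libraries. The CTBP2 libraries lay above the EV libraries within each line, by narrow margins in both, and the groups overlapped between lines. The log2 fold change over both lines was 0.55 (SE 0.21, limma adjusted p = 0.0646) and did not pass the threshold, nor did it in the 6 libraries (0.56, limma adjusted p = 0.139). It was called without MM.1S EV replicate 2 (0.71, limma adjusted p = 0.043), and under quantile normalization and both scalings to equal totals, at 0.81 to 0.85 with limma adjusted p of 0.00782 to 0.00947.

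MDM2 (Entrez 4193) is the ubiquitin ligase that marks p53 for degradation and is itself a p53 target, which closes a negative feedback loop. It had the highest mean EV level of the 9 genes, 79.4 FPKM. In MM.1S it was at 43.4 and 49.5 FPKM in CTBP2 libraries and at 63.2 and 63.3 FPKM in EV libraries, with no overlap. In that line 31.3% of all genes also lay wholly below EV with CTBP2. The MDM2 change there, -0.44 on the log2 scale, was not called (SE 0.26, limma adjusted p = 0.318). In NCI-H929 the CTBP2 libraries differed widely, at 60.0 and 106 FPKM, and overlapped the EV libraries at 84.1 and 107 FPKM. The log2 fold change over both lines was -0.34 (SE 0.18, limma adjusted p = 0.162), and -0.50 in the 6 libraries (limma adjusted p = 0.0526). Without the library labelled as MM.1S CTBP2 replicate 2, which had the 106 FPKM, it was -0.52 and called (limma adjusted p = 0.0238). Over both lines its sign was negative under all 19 alternatives, from -0.52 to -0.05, but in NCI-H929 it turned positive without NCI-H929 CTBP2 replicate 1 (0.16), under quantile normalization and under both scalings to equal totals.

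TP53INP1 (Entrez 94241) encodes a stress protein that promotes p53 phosphorylation by recruiting kinases and also takes part in autophagy, a positive loop on p53. MM.1S had 25.8 and 37.9 FPKM in CTBP2 libraries and 29.3 and 37.8 FPKM in EV libraries, so the groups overlapped. NCI-H929 had 17.2 and 37.8 FPKM in CTBP2 libraries and 3.46 and 6.87 FPKM in EV libraries. There the CTBP2 libraries lay above the EV libraries, as in 37% of all genes, and the higher of them reached the range of MM.1S. Its log2 fold change was 2.17 in NCI-H929 (SE 0.39, limma adjusted p = 0.00692) and -0.09 in MM.1S (SE 0.39, limma adjusted p = 0.92). The NCI-H929 value in the 6 libraries, with a single CTBP2 library, was 1.62. Without NCI-H929 EV replicate 1 it was 1.76 and not called (limma adjusted p = 0.0594). Over both lines the fold change was 1.04 and not called (SE 0.46, limma adjusted p = 0.101), except without the library labelled as NCI-H929 CTBP2 replicate 2 (1.37, limma adjusted p = 0.04). That SE also holds the difference between lines. The combination of line and vector took 25.8% of the variation of TP53INP1, and differences within groups 11.7%.

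FAS (Entrez 355) encodes the receptor of FAS ligand, which starts the extrinsic apoptosis cascade, and rose most of the 3 called genes. FAS lay in MM.1S at 10.98 and 12.6 FPKM in CTBP2 libraries and at 5.72 and 7.07 FPKM in EV libraries. FAS lay in NCI-H929 at 4.10 and 7.76 FPKM in CTBP2 libraries and at 0.941 and 1.28 FPKM in EV libraries. Neither line had overlapping groups, and the lower CTBP2 library of NCI-H929 stayed below the EV libraries of MM.1S. The log2 fold change was 1.23 over both lines (SE 0.22, limma adjusted p = 0.00623), 1.67 in NCI-H929 (SE 0.25, limma adjusted p = 0.0037) and 0.79 in MM.1S (SE 0.25, limma adjusted p = 0.0971). In the 6 libraries FAS was called in both lines together (1.08, limma adjusted p = 0.00686). With a single CTBP2 library a line, FAS was there at 1.28 in NCI-H929 and 0.88 in MM.1S. The MM.1S value stayed at 0.79 without the library labelled as MM.1S CTBP2 replicate 2 and without NCI-H929 CTBP2 replicate 1. It could not move there, since both express NCI-H929 markers and enter the MM.1S result through the pooled spread only. FAS in MM.1S was called under 3 of the 19 alternatives.

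TNFRSF10B (Entrez 8795) encodes the TRAIL receptor DR5, the other death receptor among the 9. NCI-H929 cells had TNFRSF10B levels of 40.1 and 42.4 FPKM in CTBP2 libraries and 26.9 and 27.7 FPKM in EV libraries. MM.1S cells had 10.2 and 12.9 FPKM in CTBP2 libraries and 12.5 and 14.5 FPKM in EV libraries. The groups were apart and tight in NCI-H929, where 37% of all genes lay wholly above EV with CTBP2, and overlapped in MM.1S. TNFRSF10B had a log2 fold change of 0.58 in NCI-H929 (SE 0.16, limma adjusted p = 0.0279) and -0.21 in MM.1S (SE 0.16, limma adjusted p = 0.432). The NCI-H929 call was lost in the 6 libraries at a like size (0.62, limma adjusted p = 0.0689). It was also lost without the library labelled as MM.1S CTBP2 replicate 2 (0.0677), NCI-H929 CTBP2 replicate 1 (0.0604), NCI-H929 EV replicate 1 (0.138) or NCI-H929 EV replicate 2 (0.0835), each a limma adjusted p, with fold changes of 0.54 to 0.62.

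TP53I3 (Entrez 9540), also known as PIG3, encodes a quinone oxidoreductase tied to reactive oxygen in p53-driven apoptosis. TP53I3 measured 7.69 and 11.03 FPKM in CTBP2 libraries and 4.604 and 5.00 FPKM in EV libraries of MM.1S. It measured 7.50 and 7.90 FPKM in CTBP2 libraries and 3.84 and 4.11 FPKM in EV libraries of NCI-H929. It was the single gene of the 9 whose 4 CTBP2 libraries all lay above all 4 EV libraries, as did 7.21% of all genes tested. The TP53I3 fold change on the log2 scale was nearly the same in both lines, 0.82 in MM.1S (SE 0.18, limma adjusted p = 0.0411) and 0.81 in NCI-H929 (SE 0.18, limma adjusted p = 0.0131). Over both lines it was 0.81 (SE 0.12, limma adjusted p = 0.00415), and it stayed called there under all 19 alternatives, at 0.72 to 1.07. In the 6 libraries it was 0.95 over both lines (limma adjusted p = 0.00626). With a single CTBP2 library a line, it was 1.05 in MM.1S and 0.84 in NCI-H929.

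Within a single line the TP53I3 calls were less firm. The MM.1S call was lost without MM.1S CTBP2 replicate 1 (0.58, limma adjusted p = 0.313), MM.1S EV replicate 1 (0.77, limma adjusted p = 0.176), MM.1S EV replicate 2 (0.87, limma adjusted p = 0.176), NCI-H929 EV replicate 1 (limma adjusted p = 0.0741) or NCI-H929 EV replicate 2 (limma adjusted p = 0.0739). The NCI-H929 call was lost without NCI-H929 EV replicate 1 (0.77, limma adjusted p = 0.0911).

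PHLDA3 (Entrez 23612) encodes a small pleckstrin-homology protein that blocks AKT at the membrane. PHLDA3 was in NCI-H929 at 24.7 and 38.2 FPKM in CTBP2 libraries and at 18.3 and 21.3 FPKM in EV libraries. PHLDA3 was in MM.1S at 10.4 and 10.996 FPKM in CTBP2 libraries and at 7.79 and 14.5 FPKM in EV libraries, so that the EV libraries enclosed the CTBP2 ones. The log2 fold changes were 0.62 in NCI-H929 (SE 0.29, limma adjusted p = 0.131) and 0.00 in MM.1S (SE 0.29, limma adjusted p = 1), and neither passed the threshold. They were 0.31 and 0.04 in the 6 libraries.

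ZMAT3 (Entrez 64393) encodes a zinc finger RNA-binding protein that acts on splicing and RNA stability downstream of p53, and had the lowest EV level of the 9 genes in MM.1S. There it was at 1.42 and 2.52 FPKM in CTBP2 libraries and at 0.741 and 0.865 FPKM in EV libraries. In NCI-H929 it was at 3.69 and 6.54 FPKM in CTBP2 libraries and at 2.75 and 2.98 FPKM in EV libraries. The groups did not overlap in either line. Over both lines ZMAT3 rose by 0.66 on the log2 scale (SE 0.18, limma adjusted p = 0.0202), with 0.70 in MM.1S (limma adjusted p = 0.13) and 0.62 in NCI-H929 (limma adjusted p = 0.0906). ZMAT3 in the 6 libraries was at 0.62 over both lines (limma adjusted p = 0.0417). With a single CTBP2 library a line, it was 0.96 in MM.1S and 0.28 in NCI-H929. The call over both lines was lost without MM.1S CTBP2 replicate 1 (0.55, limma adjusted p = 0.0651), MM.1S EV replicate 2 (0.63, limma adjusted p = 0.0579) or NCI-H929 EV replicate 1 (0.65, limma adjusted p = 0.0539), and also with lines as labelled (limma adjusted p = 0.434), with no filter (limma adjusted p = 0.058) and under quantile normalization (0.45, limma adjusted p = 0.059), while NCI-H929 alone was called without NCI-H929 CTBP2 replicate 1 (0.97, limma adjusted p = 0.0163).

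FDXR (Entrez 2232) encodes ferredoxin reductase, the mitochondrial enzyme that passes electrons to ferredoxin for steroid and iron-sulfur cluster synthesis. The MM.1S levels were 5.81 and 6.66 FPKM in CTBP2 libraries and 5.74 and 9.08 FPKM in EV libraries. The NCI-H929 levels were 17.3 and 25.4 FPKM in CTBP2 libraries and 15.997 and 20.3 FPKM in EV libraries. The groups overlapped in both lines, and the log2 fold change over both was 0.01 (SE 0.18, limma adjusted p = 0.975). It was -0.17 in the 6 libraries (SE 0.20, limma adjusted p = 0.548).

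**Figure D2:**
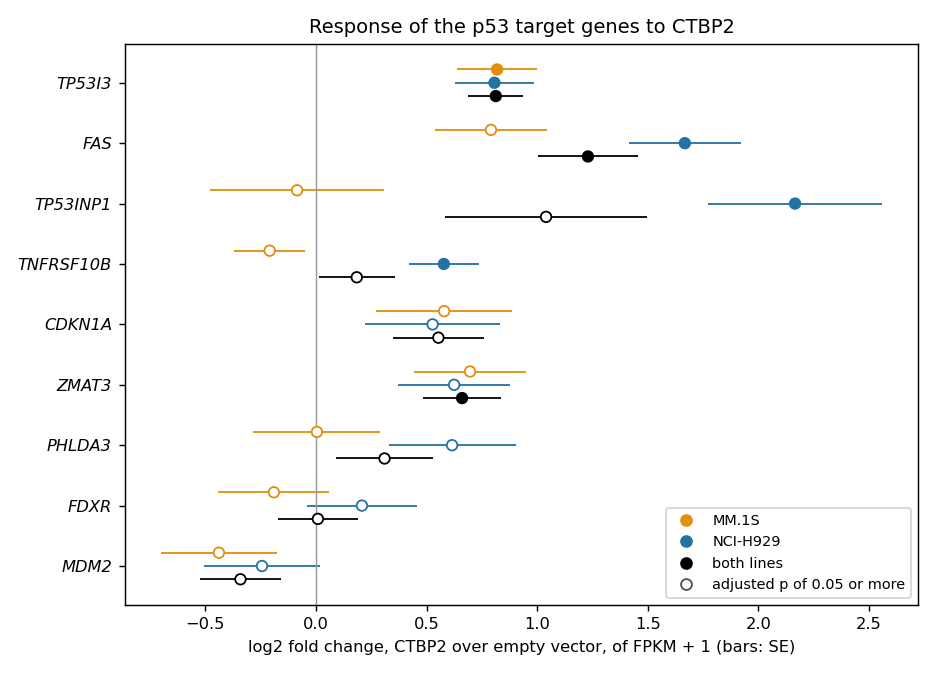
Log2 fold change of FPKM + 1, CTBP2 over EV (horizontal axis, bars are standard errors), for each gene in MM.1S, in NCI-H929 and in both lines together, filled where the limma adjusted p was under 0.05. TP53I3 is filled in all 3 rows near 0.8, TP53INP1 lies at 2.17 in NCI-H929 and -0.09 in MM.1S, and MDM2 lies below 0 in all 3, with a sign that turned in NCI-H929 without NCI-H929 CTBP2 replicate 1, under quantile normalization and under both scalings to equal totals.

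Counted by line, 1 of the 9 genes rose with CTBP2 in MM.1S, TP53I3, and 0 fell by limma (3 higher and 0 lower at an unadjusted p under 0.05), where 3.67% of all genes were called higher, 1.8% lower and 5.47% in either direction. In NCI-H929 4 rose, TP53INP1, FAS, TP53I3 and TNFRSF10B, and 0 fell (5 higher and 0 lower at an unadjusted p under 0.05), where 18.3% of all genes were called higher, 14.6% lower and 32.9% in either direction. The 6 libraries gave 3 genes higher in MM.1S, with 5.8% of all genes called higher, and 3 in NCI-H929, with 8.81%. Leaving out 1 library gave 0 to 2 of the 9 genes in MM.1S, with 16 to 1420 genes called in all against 688 with every library. It gave 1 to 4 of the 9 genes in NCI-H929, with 954 to 5127 genes called in all against 4138 with every library; the single remaining gene, without NCI-H929 EV replicate 1, came with the count of 954. The median log2 fold change of the 9 genes was 0.62 in NCI-H929 and 0.00 in MM.1S, against 0.05 and 0.00 over all genes tested. Within each line CDKN1A, TP53I3, ZMAT3 and FAS had no overlap, with CTBP2 above EV in both lines, as had 21.4% of all genes.

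Whether a gene responded differently in the lines was tested as a difference of the CTBP2 effects, NCI-H929 minus MM.1S, and 0 of the 9 genes were called by limma, where 1.26% of all genes were. TP53INP1 had the largest difference, 2.25 (SE 0.56, limma adjusted p = 0.106). TNFRSF10B differed by 0.79 (SE 0.23, limma adjusted p = 0.145) and FAS by 0.88 (SE 0.36, limma adjusted p = 0.296). These 3 genes were the ones at an unadjusted p under 0.05. Without NCI-H929 CTBP2 replicate 1, 2 genes were called, TP53INP1 (2.80, limma adjusted p = 0.0331) and FAS (1.27, limma adjusted p = 0.0489), among 418 genes in all against 158 with every library. Over the 6 libraries the 3 differences were 1.44, 0.67 and 0.40, and 0 were called. The difference for TP53I3 was -0.01 (SE 0.25, limma adjusted p = 0.991). CTBP2 itself was higher in the CTBP2 libraries of NCI-H929 than in those of MM.1S, and the part of its level in these differences was not tested.

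The lines themselves differed in most of these genes before CTBP2. In EV libraries 5 of the 9 genes were higher in NCI-H929 than in MM.1S and 2 were lower, where 22.1% of all genes were higher, 28.7% lower and 50.8% different in either direction. The higher genes were TNFRSF10B (0.97 on the log2 scale, limma adjusted p = 0.0014), FDXR (1.21, limma adjusted p = 0.00453), ZMAT3 (1.10, limma adjusted p = 0.00737), CDKN1A (1.17, limma adjusted p = 0.0132) and PHLDA3 (0.83, limma adjusted p = 0.0406). TP53INP1 (-2.53, limma adjusted p = 0.00108) and FAS (-1.81, limma adjusted p = 0.000613), the pair with the largest NCI-H929 responses, were lower in NCI-H929. TP53I3 (-0.22, SE 0.18, limma adjusted p = 0.332) and MDM2 (0.58, SE 0.26, limma adjusted p = 0.0986) were not called. The fold changes with CTBP2 and these baseline differences share the EV libraries.

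Some baseline calls rested on single libraries. CDKN1A was not called without MM.1S EV replicate 1 (0.77, limma adjusted p = 0.0971) or NCI-H929 EV replicate 1 (0.87, limma adjusted p = 0.0962). PHLDA3 was lost in 5 of the 8 cases with a limma adjusted p of 0.0602 to 0.264, namely without MM.1S CTBP2 replicate 1, MM.1S EV replicate 1 (where it was 0.42), the library labelled as NCI-H929 CTBP2 replicate 2 or either EV replicate of NCI-H929. All 7 baseline calls held in the 6 libraries. MDM2 was called at 0.58 in the 6 libraries (limma adjusted p = 0.0282), without the library labelled as MM.1S CTBP2 replicate 2 (0.0198) and without NCI-H929 CTBP2 replicate 1 (0.0197).

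**Figure D3:**
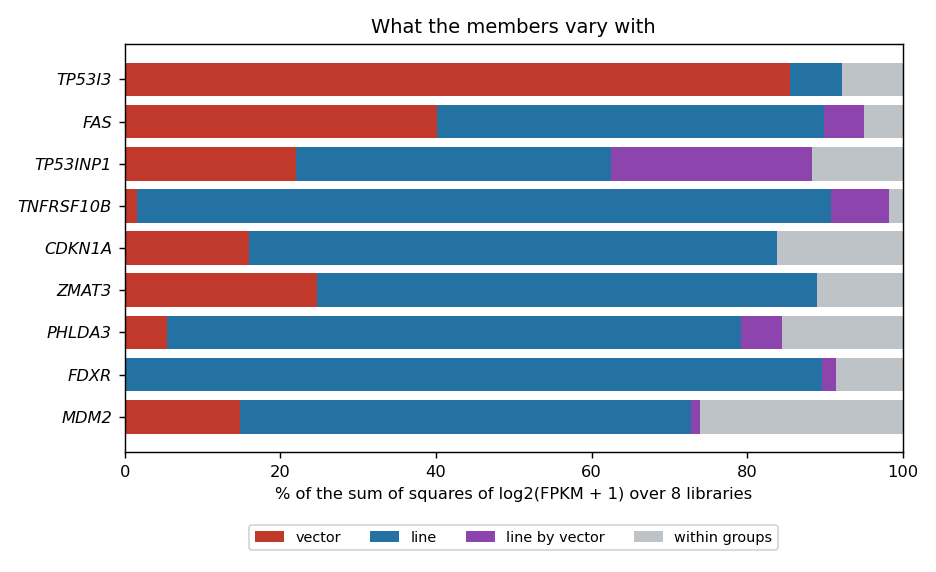
Share of the variation of log2(FPKM + 1) over the 8 libraries (horizontal axis, % of the sum of squares) that went with vector, with line, with their combination and with differences within groups, for each gene. Vector takes 85.5% for TP53I3; for FAS it takes 40.1% and line 49.8%, and line takes 89.7% for FDXR and 89.2% for TNFRSF10B.

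The plot of variation shares sets these effects side by side. Line took a larger share than vector in 8 of the 9 genes, all but TP53I3. Such shares were not computed over all genes, so this count has no background. Of all genes tested, 50.8% were called between lines in EV libraries and 34.1% with CTBP2 over both lines. The share of line was 58.0% for MDM2, 67.9% for CDKN1A, 64.2% for ZMAT3, 73.7% for PHLDA3, 49.8% for FAS and 40.4% for TP53INP1. Vector took 85.5% of the variation of TP53I3, 40.1% of FAS, 22.1% of TP53INP1, 24.7% of ZMAT3, 15.9% of CDKN1A and 14.8% of MDM2. The combination of line and vector was largest for TP53INP1, at 25.8%, and differences within groups were largest for MDM2, at 26.02%.

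Over the 8 libraries, FDXR, PHLDA3 and TNFRSF10B ran closely together on the log2 scale (Pearson r of 0.92 to 0.95), and TP53INP1 ran with FAS (r = 0.92). All 15 pairs among MDM2, CDKN1A, ZMAT3, FDXR, TNFRSF10B and PHLDA3 had a positive r, of 0.36 to 0.95, and all 3 pairs among TP53I3, TP53INP1 and FAS did, of 0.62 to 0.92. Of the 18 pairs across these sets, 3 had a positive r, and the lowest was -0.65, between MDM2 and FAS. The sets were drawn after these values were seen, and the 8 points share line, vector and depth, so the values are descriptions.

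As a mean of standardized values, the 9 genes stood highest in the library labelled as MM.1S CTBP2 replicate 2 (1.105 SD units) and next in NCI-H929 CTBP2 replicate 1 (0.53), the libraries that express NCI-H929 markers and carry CTBP2. They stood lowest in MM.1S EV replicate 1 (-0.70). Of genes outside the 9, those most like this mean over the 8 libraries were PEX2 and RCAN2 (both r = 0.98), PPP1R13B (r = 0.98), LIFR (r = 0.98) and HIST1H2BO (r = 0.98), by the Pearson correlation of log2 values. PEX2 was at 7.09 to 10.7 FPKM. PPP1R13B was at 1.07 to 3.58 FPKM. RCAN2, LIFR and HIST1H2BO reached at most 1.99, 1.52 and 6.40 FPKM.

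Other direct p53 targets moved in both directions. Of 79 listed, 78 were in the table and 64 passed the filter of at least 1 FPKM in at least 2 libraries. Over both lines 17 of the 64 were higher with CTBP2 and 3 lower, beside 17.4% and 16.7% of all genes, with a median of 0.16 on the log2 scale. In MM.1S 5 were higher and 0 lower by limma (13 and 5 at an unadjusted p under 0.05), beside 3.67% and 1.8% of all genes, and in NCI-H929 20 were higher and 4 lower, beside 18.3% and 14.6%. In the 6 libraries 15 were higher and 2 lower over both lines, beside 11.5% and 13% of all genes. Leaving out 1 library gave 11 to 19 higher over both lines; the count of 11 came without MM.1S CTBP2 replicate 1 or without either EV replicate of NCI-H929. With equal totals it was 27 higher and 1 lower, beside 3760 and 868 of the 12583 genes tested. With small RNA genes also left out it was 20 higher and 1 lower, beside 2832 and 922.

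Among 10 tested arrest genes 2 rose, beside 17.4% of all genes, PLK2, a polo-like kinase (0.84, limma adjusted p = 0.00607), and BTG2, an antiproliferative regulator of mRNA decay (0.90, limma adjusted p = 0.0119). BTG2 was at 363 to 524 FPKM in CTBP2 libraries and 174 to 298 FPKM in EV libraries. Of 13 apoptosis targets 5 rose and 2 fell, beside 17.4% and 16.7% of all genes. The decoy TRAIL receptors TNFRSF10D (1.26, limma adjusted p = 0.00338) and TNFRSF10C (0.84, limma adjusted p = 0.00697), which bind the same ligand as TNFRSF10B without passing on a death signal, were higher. TNFRSF10C, counted in the 5, passed the filter only through the CTBP2 libraries of NCI-H929, where it was high (2.09 and 2.39 FPKM). Elsewhere it was at 0.667 FPKM or less, and it was not called in MM.1S (0.53, limma adjusted p = 0.0808). BCL2L1, which encodes the survival protein BCL-XL, was also higher (0.54, limma adjusted p = 0.0127). The rest of the 5 were BBC3 (1.01, limma adjusted p = 0.0277) and TNFRSF10A (0.32, limma adjusted p = 0.0397), neither a decoy nor a survival gene. PIDD was among the 2 that fell (-0.47, limma adjusted p = 0.0303). TRIAP1, a small p53-induced survival protein, was lower (-0.56, limma adjusted p = 0.0276). TRIAP1 was not called under either scaling to equal totals (limma adjusted p of 0.187 and 0.192), nor in 6 of the 8 cases with 1 library left out (0.0518 to 0.0836), the exceptions being MM.1S EV replicate 1 and the library labelled as NCI-H929 CTBP2 replicate 2; BCL2L1 was not called in the 6 libraries (0.47, limma adjusted p = 0.0608).

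Of 5 DNA repair targets 1 rose, beside 17.4% of all genes, the ribonucleotide reductase subunit gene RRM2B (0.55, limma adjusted p = 0.0247), and XPC, a damage sensor of nucleotide excision repair, was at 0.41 (limma adjusted p = 0.139). RRM2B was not called without MM.1S CTBP2 replicate 1, MM.1S EV replicate 2 or either EV replicate of NCI-H929 (0.48 to 0.57, limma adjusted p of 0.0539 to 0.0764). Of 36 tested targets with metabolic and other roles 9 rose and 1 fell, beside 17.4% and 16.7% of all genes. CD82, a membrane tetraspanin, rose by 2.15 (limma adjusted p = 0.00456) and DDIT4, an inhibitor of mTORC1, by 1.30 (limma adjusted p = 0.00277). CD82 was at 9.32 to 18.5 FPKM in NCI-H929 CTBP2 libraries against 0.67 and 0.904 FPKM in NCI-H929 EV libraries, and at 143 and 153 FPKM in MM.1S CTBP2 libraries against 48.6 and 72.1 FPKM in MM.1S EV libraries. TP53TG1, a non-coding p53 target, rose by 1.12 (limma adjusted p = 0.00375), and IKBIP fell by 0.99 on the log2 scale (limma adjusted p = 0.00404).

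Of 28 tested regulators of p53, 4 were higher with CTBP2 and 6 lower over both lines, beside 17.4% and 16.7% of all genes, with a median of 0.01. Of the 28, 3 were higher and 4 lower in the 6 libraries. The checkpoint kinase genes CHEK1 and CHEK2, whose products phosphorylate p53 after DNA damage, fell by 1.08 and 0.71 on the log2 scale (limma adjusted p = 0.00801 and 0.00643). PRKDC, the catalytic subunit of DNA-dependent protein kinase, fell by 0.66 (limma adjusted p = 0.011). ATM, the apical kinase of the double-strand break response, rose by 0.72 (limma adjusted p = 0.012). PRKDC was not called under either scaling to equal totals (limma adjusted p of 0.0904 and 0.0675), and CHEK2 was not under the one without small RNA genes (0.0567), both still below 0. Without MM.1S CTBP2 replicate 1 and without each EV replicate of NCI-H929 in turn, 3 regulators were higher and 3 lower.

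Genes of the G2/M phase that p21 silences through DREAM were lower as a list. Of 20 tested, 15 fell and 0 rose over both lines, beside 16.7% and 17.4% of all genes, with a median of -0.85 against 0.04 over all genes. CENPF (-0.90, limma adjusted p = 0.00623), the survivin gene BIRC5 (-1.10, limma adjusted p = 0.00651), the mitotic kinase gene CDK1 (-1.14, limma adjusted p = 0.0104) and the cyclin gene CCNA2 (-1.14, limma adjusted p = 0.0115) led the list. CDK1 was at 31.8 and 43.0 FPKM in MM.1S CTBP2 libraries against 72.8 and 73.2 FPKM in MM.1S EV libraries, and at 5.46 and 13.6 FPKM in NCI-H929 CTBP2 libraries against 18.998 and 28.02 FPKM in NCI-H929 EV libraries. All 20 were below 0 over both lines under each of the 19 alternatives. Within a line 5 of the 20 were called lower in NCI-H929 and 0 in MM.1S by limma (12 and 8 at an unadjusted p under 0.05), where 14.6% and 1.8% of all genes were, with medians of -0.87 and -0.82. These counts moved with single libraries. In the 6 libraries, with a single CTBP2 library a line, 9 were called over both lines. Over both lines all 20 were called without NCI-H929 CTBP2 replicate 1, and 6 without MM.1S CTBP2 replicate 1, MM.1S EV replicate 2 or NCI-H929 EV replicate 1. In NCI-H929 the median was -0.28 with 0 called without the library labelled as MM.1S CTBP2 replicate 2, and -1.50 with 20 called without NCI-H929 CTBP2 replicate 1. In MM.1S 14 were called without either of those libraries. With equal totals 8 were called over both lines at a median of -0.57, and 13 at -0.60 with small RNA genes also left out. CDKN1A itself was not called, as given above.

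**Figure D4:**
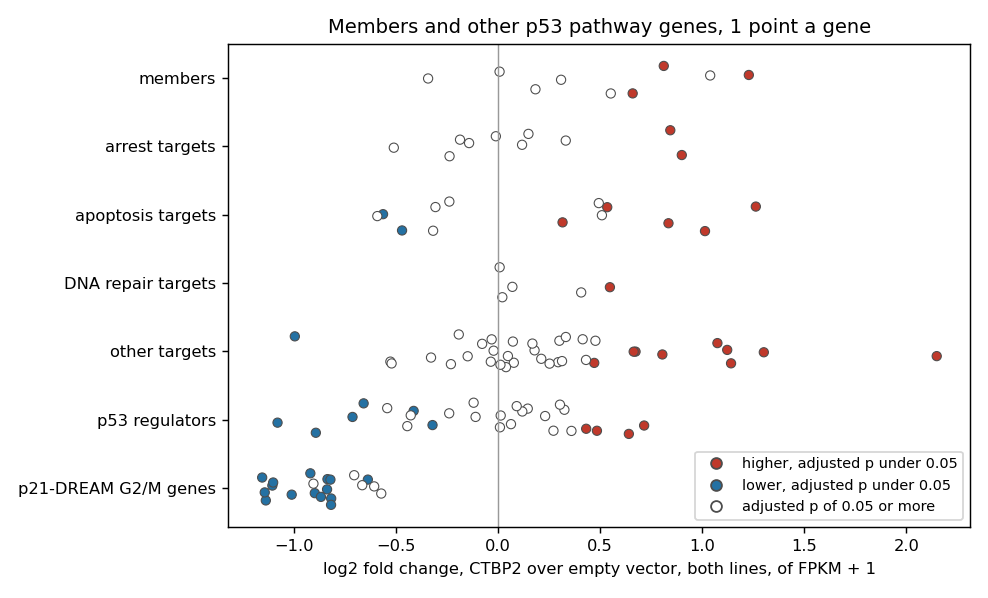
Log2 fold change of FPKM + 1, CTBP2 over EV in both lines together (horizontal axis), 1 point per tested gene, for the 9 genes (top, "members") and for lists of other p53 targets, p53 regulators and p21-DREAM G2/M genes. Red and blue mark limma adjusted p under 0.05; the G2/M list lies wholly below 0 with a median of -0.85, while the target lists spread on both sides.

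Some markers of other cell types moved with the vector. The 3 T cell genes summed to 2.62 to 54.3 FPKM in CTBP2 libraries and 0.527 to 3.65 FPKM in EV libraries; 1 of the 3 was tested and called higher, CD3E (2.13, limma adjusted p = 0.00925), while CD2 was at 0 in all 4 EV libraries and at most 0.955 FPKM with CTBP2. The 4 epithelial genes summed to 2.28 to 27.2 FPKM in CTBP2 libraries and 0.928 to 18.4 FPKM in EV libraries, and EPCAM was called at 1.27 FPKM or less. The high sums were mainly KRT18, which split by line, at 13.8 to 26.3 FPKM in NCI-H929 and 0.402 to 0.65 FPKM in MM.1S. KRT18 was not called over both lines (0.36, limma adjusted p = 0.0834) and was called higher in NCI-H929 (0.60, limma adjusted p = 0.0338). The 3 myeloid and the 3 fibroblast genes summed to under 1 FPKM in every library and none was tested. IRF4 (-1.17, limma adjusted p = 0.00166) and TNFRSF17 (-0.85, limma adjusted p = 0.00578) were the 2 of 7 plasma cell markers called lower, beside 16.7% of all genes. CD38, another of the 7, went the other way. It was at 0.85 over both lines and not called (limma adjusted p = 0.0574), and was called higher in NCI-H929 (1.37, limma adjusted p = 0.0297). EPCAM was not called in the 6 libraries (0.60, limma adjusted p = 0.0537), and CD3E was (1.91, limma adjusted p = 0.00573). The genes named above from the target, regulator, G2/M and plasma cell lists had the same sign there. All but BCL2L1, TNFRSF10A, PIDD, XPC and PPP1R13B were called. The part of these shifts in the p53 target values was not tested.

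Scaling bears on all these directions. With library totals made equal after leaving out immunoglobulin genes and CTBP2, the median of all genes over both lines moved to 0.27 and the split of calls to 3760 higher and 868 lower, against 2186 higher and 2101 lower as deposited. With small RNA genes also left out, the median was 0.24 and the split 2832 higher and 922 lower. The median of the 9 genes was then 0.85 and 0.81, and TP53I3, FAS, ZMAT3 and CDKN1A were the genes called higher under both. MDM2 stayed below 0 over both lines under both, and below the median of all genes. The sign of FDXR over both lines was not stable, ranging from -0.17 to 0.29 over the alternatives.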

How the data were processed

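RNA libraries (TruSeq) were made from total RNA, per the labels' protocols. Tools named in the submitters' processing notes are Trimmomatic 0.36.5, STAR 2.6.0b-1 and HTSeq 0.9.1, with the build hg19. The deposited values are FPKM, which the authors computed; the unit comes from the table's name and values, and the tool behind the FPKM is not given in the sources used here. A gene was tested if it reached 1 FPKM in 2 or more libraries (12583 genes), and log2(FPKM + 1) was fitted with limma 3.58.1 (R 4.3.3; linear fit, moderated with a mean-variance trend), Benjamini-Hochberg adjusted p under 0.05 over all genes tested. Both lines together used line and vector as terms; results within a line, the difference and the baseline used 1 mean per group over 8 libraries. Line was read from CCND2 and FGFR3. Groups otherwise follow the titles. Depth was estimated from the steps of low FPKM values, of which 54.1 to 63.5% came out whole within 0.1 of a fragment (20% by chance), so no counts were recovered. The single largest feature took up to 16.3% of a library's FPKM.

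The 9 genes, the gene lists and the tests were chosen with earlier results of these data known. Text names all 9 genes, up to 4 called genes of each list by smallest p (or 2 as values), label checks, and the 5 genes most like the mean of the 9. EPCAM, KRT18, CD3E, CD2, CD38, BBC3, TNFRSF10A and PIDD were named after their values were seen. In simulated libraries of 12583 genes, for both lines together, 94 of 100 genes with a log2 change of 1 and 100 of 100 with 2 were recovered, with 11 false calls. The simulated noise was independent between genes, only these genes changed, and the change was the same in both lines. The figures therefore do not cover deviations that many genes of a library share. The gene encoding p53 itself is not reported here. Promoter windows and start sites are from RefSeq.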

Additional observations from a re-analysis of the deposited data

Results flagged for a closer look

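The TP53I3 level of MM.1S CTBP2 replicate 1, 11.03 FPKM, stood apart from the other 3 CTBP2 libraries, which lay between 7.50 and 7.90 FPKM. Its gap to the nearest library was 0.888 of the range of the 4, above the critical value for 4 samples. Such a gap appears by chance in about 1 in 20 groups. Without this library TP53I3 was still called over both lines (0.72 on the log2 scale).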

How the results depend on the processing

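With lines as the labels give them, 1 of the 9 genes was called over both lines, against 3 with lines read from expression. The counts were 0 in MM.1S (1), 0 in NCI-H929 (4) and 0 at baseline (7), and TNFRSF10B in NCI-H929 turned to -0.36. All-gene calls fell to 420 over both lines, 3 in MM.1S, 7 in NCI-H929 and 5 at baseline. In MM.1S the count was 0 with no filter, quantile normalization, equal totals without small RNA genes, or the replicate block. All-gene calls in MM.1S were then 384, 557, 370 and 412. In NCI-H929 the count was 7 with equal totals without immunoglobulin genes and CTBP2, beside 3856 higher and 636 lower of the 12583 genes tested. Leaving out 1 library gave 2 to 4 genes over both lines, 0 to 2 in MM.1S, 1 to 4 in NCI-H929, 0 to 2 for the difference and 5 to 8 at baseline. In the same order, all-gene calls were 2458 to 4441, 16 to 1420, 954 to 5127, 6 to 418 and 4599 to 7072. The cause was not tested. Of 850 single-gene values of the 9 genes under the alternatives, 781 kept their side of the threshold, 54 of them uncalled with the sign turned; 46 lost the call, 22 gained it and 1 called value reversed. Of 417 such values for 22 genes of the other lists, 39 lost the call, 1 gained it and 0 reversed. ZMAT3 has no value under a filter of 5 FPKM.

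Deviations of same-numbered libraries from their group means correlated at 0.44 and 0.45 between vectors within a line and at -0.28 to 0.03 between lines. Between lines no pair was above 0.1, so the numbers were not taken to mark a batch common to both lines. Within each line same-numbered libraries did deviate together, and a pairing within a line was not fitted. The replicate block is 1 term shared by both lines and does not model such a pairing. With it 3 of the 9 genes were called over both lines, 4 in NCI-H929, 0 for the difference and 7 at baseline. Of all genes 29.5% (3717 genes), 28.7%, 0.477% and 48.8% were called in these comparisons.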
